A study of Mus musculus with 6 samples.

Results

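The 84 cytosolic ribosomal protein genes described here were taken from a table of 48897 mouse genes by name: a protein-coding gene was a member where its symbol was Rpl, Rps, Rplp or Rpsp followed by a number and the usual suffix letters. Of these, 76 were canonical genes (43 of the large subunit, 30 of the small subunit and the 3 P-stalk genes), and 8 were paralogs whose symbols end in l or in l and a number. Names, not measured values, chose the members. Counts were measured in liver sinusoidal endothelial cells of C57BL/6 mice aged 7 to 8 weeks, on day 14 after partial hepatectomy (PHx, in which part of the liver is removed) or after sham surgery (Sham). The cells were enriched with magnetic beads against CD146, the product of Mcam, and each group held 3 libraries, numbered 1, 3 and 4. No genetic change or drug is given for either group. The labels do not say that the libraries came from separate animals, so p-values here speak only for the spread among these libraries, and that spread may be technical.

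Each cytosolic ribosome carries 1 copy of almost every ribosomal protein, bound to ribosomal RNA in a small subunit that decodes the mRNA and a large subunit that forms peptide bonds. The P-stalk proteins recruit the GTPases that drive elongation. Most ribosomal protein mRNAs begin with a terminal oligopyrimidine (TOP) tract, a run of C and T bases at the cap through which growth signals acting on mTORC1 and LARP1 control their translation, and the genes are transcribed at high and similar rates in most cells. Paralogs are retained copies of such genes, and some are restricted to testis or muscle.

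Library totals ranged from 38765116 to 51888481 counts. The 10 sinusoidal endothelial markers, Stab2, Lyve1, Clec4g and Mcam among them, summed to 26236 to 28789 CPM (counts scaled to library size) in Sham and to 15183 to 22584 in PHx, with none at 0 in any library. The sum did not stand for each marker. Lyve1 and Mcam had log2 fold changes (PHx minus Sham) of 0.16 and 0.11, and the other 8 were negative. PHx 4 stood apart from the other libraries in its neutrophil markers. The summed level of its 7 neutrophil markers was 3825 CPM, against 21.8 to 269 in Sham, 552 in PHx 1 and 22.8 in PHx 3, and all 7 were detected in every library. The 5 Kupffer cell markers summed to 26.9 CPM in PHx 4, against 311 in Sham 1 and 59.4 to 135 in the others. The 6 hepatocyte markers summed to 551 CPM in PHx 3, against 955 to 1456 in the other libraries. The 8 stellate cell and fibroblast markers summed to 4239 to 5685 CPM in PHx and to 1246 to 1425 in Sham. The mitochondrial chromosome held 2.36% of counts in PHx 1 and 1.20% to 1.56% in the other libraries. Because PHx 4 differed in its marker levels, values without it are given for each gene group and for the genes with the largest differences. CPM values are scaled by trimmed-mean-of-M-values (TMM) factors except where stated. A deviation is a gene's log2 CPM (prior count 2) minus its mean over the Sham libraries.

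Start sites were searched for the sequence feature for which these genes are known, and it was found in part of them. The promoter sequences of RefSeq (GRCm38.p6) matched 56 of the 76 canonical genes and all 8 paralogs. Each line below holds 60 bases, 45 before the annotated start and 15 from it, 5′ to 3′ on the gene's strand, with capitals for a pyrimidine tract (a C followed by at least 7 bases of C or T). Rps6 (chr4:86857353-86857412, minus strand), Rpl35 (chr2:39005117-39005176, minus), Rps18 (chr17:33955651-33955710, minus) and Rps9 (chr7:3703996-3704055, plus) are shown because their tract lies at the start site. Rpl39 (chrX:37085208-37085267, minus) is shown because it had the largest difference among the canonical genes, and the paralogs Rpl22l1 (chr3:28805463-28805522, plus) and Rpl7l1 (chr17:46782642-46782701, minus) because 1 has a tract and the other has none.
Rps6: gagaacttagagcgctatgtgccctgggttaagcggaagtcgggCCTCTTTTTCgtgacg
Rpl35: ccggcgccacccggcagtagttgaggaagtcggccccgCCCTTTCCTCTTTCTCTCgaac
Rps18: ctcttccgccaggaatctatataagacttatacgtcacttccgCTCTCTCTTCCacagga
Rps9: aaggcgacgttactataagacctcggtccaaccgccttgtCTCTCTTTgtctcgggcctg
Rpl39: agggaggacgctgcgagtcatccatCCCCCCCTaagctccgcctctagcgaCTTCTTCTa
Rpl22l1: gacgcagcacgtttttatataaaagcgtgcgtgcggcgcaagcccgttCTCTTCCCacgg
Rpl7l1: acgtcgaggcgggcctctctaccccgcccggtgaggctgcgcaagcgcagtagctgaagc
Within 25 bases of the start on either side, such a tract was found on the gene's strand in 27 of 56 canonical promoters (48.2%) and in 4 of 8 paralog promoters. The share over all 23938 RefSeq promoters searched was 15.3%, and it was 15.9% over the promoters of tested genes and 19.1% over those of mitochondrial ribosomal proteins. The motif CCGGAAGT, the core bound by ETS-family factors, occurred on either strand of the 300-base window in 17.9% of the canonical promoters, 16.2% of those of mitochondrial ribosomal proteins, 7.07% of those of tested genes and 4.26% of all promoters. The motif TATAAA occurred on either strand in 10.7%, 5.88%, 8.11% and 14% of the same sets of windows. A match is only a run of letters, and the annotated start need not be the one used in these cells.

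Levels per length spanned a wide range within the ribosome's gene set. The median of the 76 canonical genes was 203 RPKM (counts per kilobase of listed length, scaled to the library total) in Sham, from 21.9 for Rps15a to 564 for Rps12, both small-subunit proteins. Rps12 read 544, 620.5 and 529 RPKM in Sham 1, 3 and 4. In PHx 1, 3 and 4 its values were 487, 478 and 719 RPKM, so that only PHx 4 was above the Sham range. The next 4 in order of mean Sham RPKM were Rplp1 (505), an acidic stalk protein, Rps14 (465), of the small-subunit platform, Rpl8 (464), of the catalytic core of the large subunit, and Rpl41 (442), the smallest ribosomal protein. The Sham ranges of neighbours in this order overlapped. Within each Sham library Rps12 was above Rplp1 and Rplp1 above Rps14, but the order of Rps14, Rpl8 and Rpl41 changed between Sham libraries. At the lower end stood Rps15a, Rpl22 (39.7), Rps20 (41.1), Rpl39 (60.4) and Rpl15 (66.1). Rps15a, Rps20, Rpl22 and Rpl15 had listed lengths of 5136, 3446, 2497 and 2015 bases, so that their counts were divided by long gene models. In CPM, which is not divided by length, Rps15a read 116.7, 113 and 113 in Sham and 95.3, 107 and 165 in PHx.

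**Figure D1:**
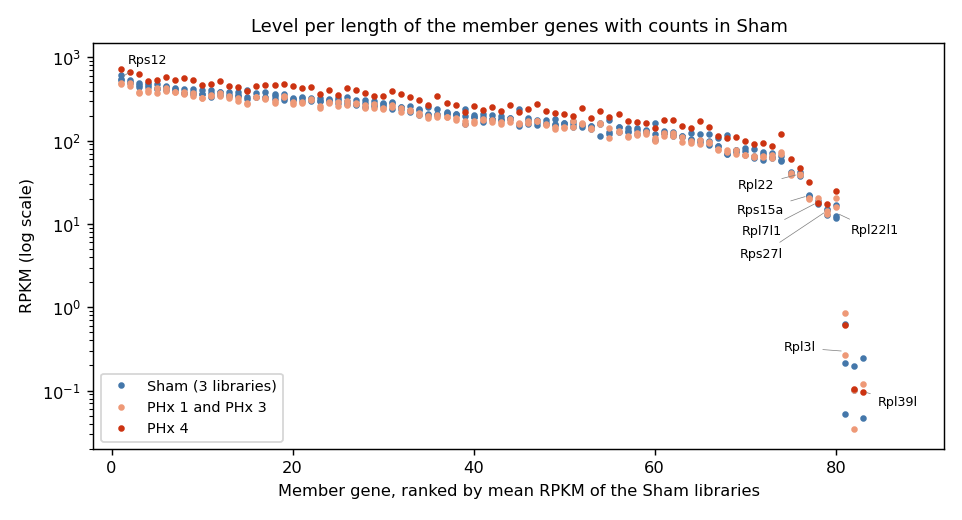
Level per length (RPKM, log axis) of the 83 member genes with counts in Sham, ranked by their mean over the Sham libraries; each point is 1 library, and values of 0 are not drawn. Canonical genes run from 564 RPKM (Rps12) to 21.9 (Rps15a), and the paralogs other than Rpl36al take the lowest places.

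No ribosomal protein gene was called as different between PHx and Sham in the edgeR quasi-likelihood test across all genes. At a Benjamini-Hochberg adjusted p under 0.05, 0 of 76 canonical genes and 0 of 5 tested paralogs were called, where 164 of 19033 genes tested were called (0.862%), 0.846% as higher in PHx and 0.0158% as lower. At an unadjusted p under 0.05 the members also numbered 0, against 12.7% of all genes tested, and DESeq2 called 0 members where it called 4.51% of all genes. The number of calls over all genes changed with the libraries used: 161 genes were called higher in PHx with all libraries, and 34, 6, 0, 58, 82 and 160 without Sham 1, Sham 3, Sham 4, PHx 1, PHx 3 and PHx 4 in turn. No member was called in any of these fits. All 76 canonical genes passed the filter on low counts. Their median log2 fold change (PHx minus Sham) was 0.05, with a range of -0.16 to 0.49, and the median over all genes tested was 0.03. The signs were 55 positive and 21 negative, or 42 and 34 under upper-quartile scaling. Standard errors ran from 0.12 to 0.25 on the log2 scale. A difference of that size in a single gene could not be told from the spread between libraries. Larger differences could also go uncalled, as that of Rpl39 (0.49 ± 0.22, SE) did.

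The libraries of the PHx group did not move together. The median deviation of the 76 canonical genes was -0.05, 0.04 and 0.01 in Sham 1, 3 and 4, -0.23 in PHx 1, -0.13 in PHx 3 and 0.42 in PHx 4. As folds of the Sham mean these medians were 0.854 in PHx 1, 0.917 in PHx 3 and 1.33 in PHx 4. All 76 canonical genes were above their Sham mean in PHx 4, against 2 in PHx 1 and 10 in PHx 3. Over all genes tested the median deviation was 0.02, 0.01 and 0.03 in PHx 1, 3 and 4. PHx 4 was the highest of the 6 libraries for 71 of the 76, a place it held for 26.6% of all genes tested. PHx 1 was the lowest library for 62, a place for which the share over all genes was not computed. PHx 1 and PHx 3 were both below the Sham mean for 66 of the 76, against 29.7% of all genes tested.

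For 44 of the 76 canonical genes, PHx 1 and PHx 3 were both below every Sham library while PHx 4 was above every Sham library. That order, set after the library medians were seen, was found in 1.58% of all genes tested. The canonical genes moved together within libraries, so their counts are not separate observations. The SD over the PHx libraries exceeded that over the Sham libraries for 72 of 76, against 66% of all genes tested. Under median-of-ratios, upper-quartile and library-size scaling, and with TMM factors computed without the members, the median deviation was 0.34 to 0.42 in PHx 4 and -0.12 to -0.13 in PHx 3. In PHx 1 it was -0.23 to -0.24 under these scalings, except with library size alone, where it was -0.12 and the median of all genes was 0.13.

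**Figure D2:**
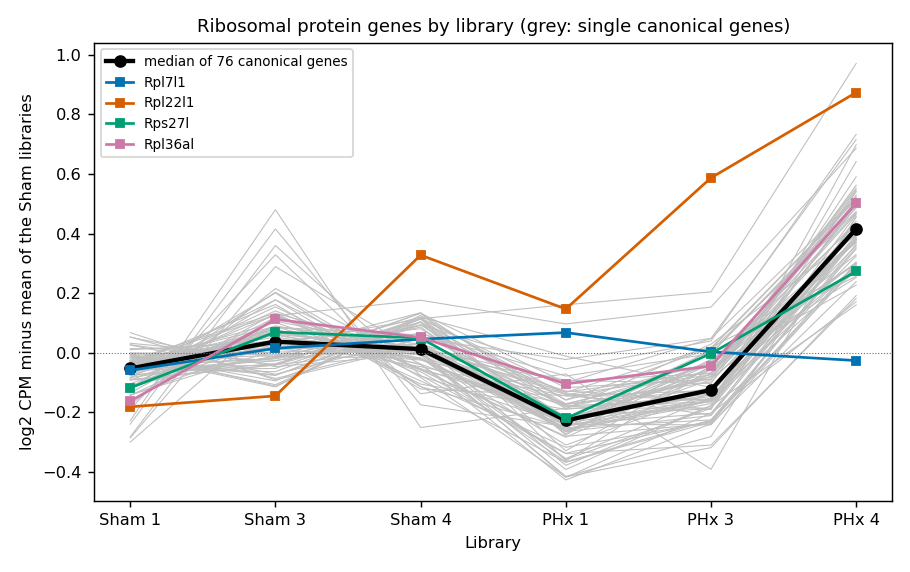
Deviation of each canonical gene (grey lines, log2 CPM minus the mean of the Sham libraries) in the 6 libraries, with the median of the 76 genes in black and 4 paralogs in colour; lines join the values of 1 gene and imply no order of libraries. The black line lies at -0.23 in PHx 1, -0.13 in PHx 3 and 0.42 in PHx 4, while Rpl7l1 stays near 0 in all libraries.

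In both subunits and the stalk the medians of PHx 1 and PHx 3 were below 0 and that of PHx 4 above it. The large-subunit genes had median deviations of -0.21, -0.12 and 0.39 in PHx 1, 3 and 4, the small-subunit genes -0.24, -0.15 and 0.43, and the 3 stalk genes -0.24, -0.04 and 0.38. The canonical genes together took 1.44%, 1.55% and 1.54% of the counts of Sham 1, 3 and 4, while their share was 1.39%, 1.40% and 2.02% in PHx 1, 3 and 4. The group values were 1.51% ± 0.0643 (SD, n = 3) in Sham and 1.60% ± 0.361 (SD, n = 3) in PHx, a difference smaller than the spread within PHx. The summed neutrophil markers were 3825 CPM in PHx 4, which had the highest share, 552 CPM in PHx 1, which had the lowest, and 22.8 CPM in PHx 3. The part of other cells in the shares was not tested, and in bulk samples fewer cells of a type and less RNA per cell cannot be told apart.

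**Figure D3:**
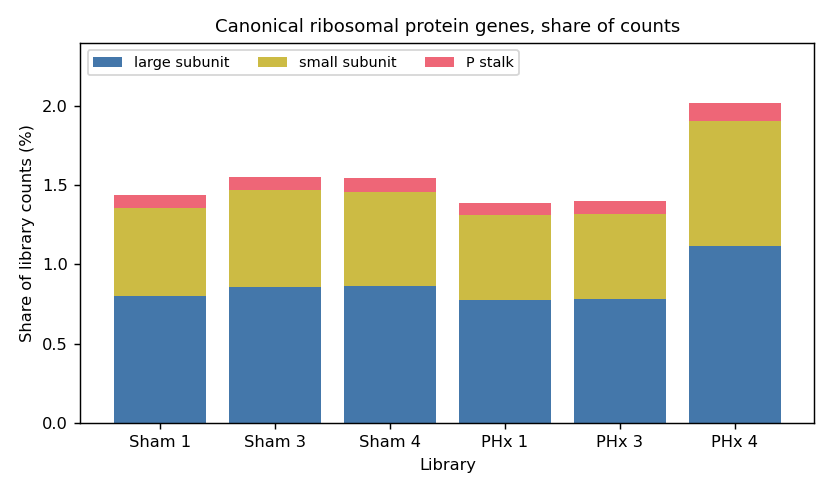
Share of each library's counts (%) held by canonical ribosomal protein genes, stacked by large subunit, small subunit and P stalk. PHx 4 reaches 2.02%, the other 5 libraries lie between 1.39% and 1.55%, and the proportions of the 3 classes are similar in all 6.

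Without PHx 4 the direction of the canonical genes turned. Their median log2 fold change was then -0.17, with a range of -0.38 to 0.18, and 73 of 76 were negative. The 3 positive genes were Rpl39, Rpl24 and Rps9. Over all genes tested in this fit the median was 0.02, and 9398 of 19771 were negative. The fit rests on PHx 1 and PHx 3 alone in its PHx group, and the canonical genes moved together within libraries. By edgeR, 11 of 76 had an unadjusted p under 0.05, where 9.55% of all genes did, and 0 were called at an adjusted p under 0.05, where 0.84% of all genes were. The smallest adjusted p, 0.329, was that of Rps14, with a log2 difference of -0.35 ± 0.11 (SE). Low unadjusted p were also found for Rpl30 (-0.30), Rps15 (-0.38) and Rpl26 (-0.28). The median was -0.12 to -0.18 when this fit was repeated with other scalings. Leaving out PHx 1 gave a median of 0.15 and leaving out PHx 3 a median of 0.12.

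**Figure D4:**
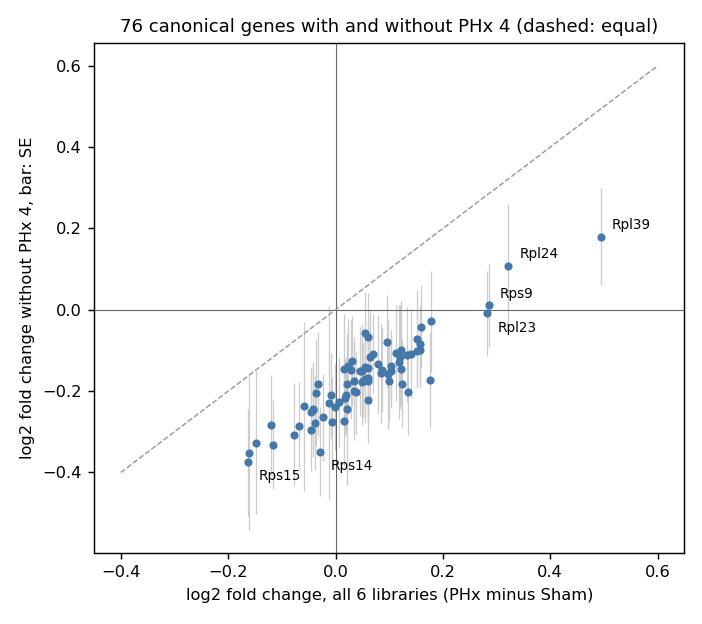
Log2 fold change (PHx minus Sham) of the 76 canonical genes from all 6 libraries (horizontal axis) and without PHx 4 (vertical axis, bars are SE); the dashed line marks equal values. All points lie below the dashed line, and 73 lie below 0 on the vertical axis.

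The canonical gene with the largest difference was Rpl39, whose product is a small protein lining the exit tunnel of the large subunit. Rpl39 read 25.1, 25.8 and 28.7 CPM in the Sham libraries, in the order 1, 3 and 4, and 29.6, 30.5 and 52.0 in the PHx libraries in the same order, which is used for all values that follow. Every PHx library was above every Sham library, though PHx 1 and PHx 3 only narrowly. It was the only canonical gene whose groups did not overlap, against 20.5% of all genes tested (10.6% higher in PHx and 9.96% lower). Its log2 fold change was 0.49 ± 0.22 (SE), with an edgeR adjusted p of 0.413. Without PHx 4 the value was 0.18 ± 0.12.

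Rpl24, a large-subunit protein at the bridge to the small subunit, read 79.6, 107 and 111 CPM in Sham and 105, 109 and 158 in PHx. Its Sham 1 value was the lowest and its PHx 4 value the highest, and the other 4 libraries lay together. Rps9, a small-subunit protein near the mRNA entry, read 224, 210 and 228 CPM in Sham and 217, 228 and 362 in PHx. Only PHx 4 left the Sham range in a clear way, and the same held for Rpl23, a large-subunit protein, at 169, 177 and 191 CPM in Sham and 172, 184 and 297 in PHx. The log2 fold changes of Rpl24, Rps9 and Rpl23 were 0.32, 0.29 and 0.28, and none passed the test. Without PHx 4 these values were 0.11, 0.01 and -0.01. Among the next in size were Rpl13a (0.18), Rpl36a (0.18) and Rpl10a (0.16).

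At the other end, Rps15, a small-subunit protein near the decoding site, read 205, 256 and 210 CPM in Sham and 167, 179 and 254 in PHx. PHx 1 and PHx 3 were below every Sham library, while PHx 4 lay at the level of Sham 3, and the log2 fold change was -0.16 ± 0.18 (SE). Rps27, a zinc-finger protein of the small subunit, read 93.7, 139.6 and 114 CPM in Sham and 85.4, 99.2 and 129 in PHx, with overlapping groups and a log2 fold change of -0.15. Rpl8 read 387, 425 and 405 CPM in Sham and 309, 358 and 453 in PHx, again with PHx 1 and PHx 3 lowest and PHx 4 highest (log2 fold change -0.12). Others of the 8 most negative were Rps21 (-0.16), Rpl37 (-0.08), Rpl26 (-0.07) and Rps29 (-0.06). None of the 8 passed the test.

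The P-stalk genes were also lowest in PHx 1 and highest in PHx 4. Rplp0, the scaffold of the stalk, read 531, 481 and 524 CPM in Sham and 434, 510.3 and 724 in PHx. Rplp1 read 234, 248 and 236 CPM in Sham and 201, 233 and 312 in PHx. Rplp2, the partner of Rplp1, read 90.0, 95.4 and 96.8 CPM in Sham and 83.4, 91.2 and 122 in PHx. PHx 3 lay within the Sham range for Rplp0 and Rplp2 and just below it for Rplp1. The log2 fold changes were 0.12, 0.05 and 0.07, and without PHx 4 they were -0.12, -0.14 and -0.11. Rps6, the small-subunit protein phosphorylated by S6 kinase, read 398, 413 and 466 CPM in Sham and 351, 429 and 607 in PHx.

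Rps27a encodes a ribosomal protein fused to ubiquitin. It read 60.9, 63.9 and 63.3 CPM in Sham and 58.8, 58.3 and 92.6 in PHx. The naming rule leaves out some genes of ribosomal proteins, among them Rpsa, the laminin-receptor protein of the small subunit, and Fau, which encodes a fusion with a small-subunit protein. Rpsa read 379, 372 and 388 CPM in Sham and 323, 358 and 501 in PHx. Fau also had PHx 4 as its highest library, and the log2 fold changes of Rpsa and Fau were 0.05 and -0.05.

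Canonical genes with and without a start-site tract had similar medians in PHx 4. The 27 genes with a tract, such as Rps6, Rpl35 and Rps18 above, had a median deviation of 0.42 in PHx 4, and the 29 without had 0.43. In PHx 1 these medians were -0.19 and -0.24, and in PHx 3 they were -0.12 and -0.08. The ranges in PHx 4 were 0.17 to 0.97 and 0.18 to 0.73, so that they overlapped. The highest value was that of Rpl39, which has a tract, and the next was that of Rpl23 (0.73), which has none.

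Some genes with short mRNAs were highest or nearly highest in Sham 3. Rpl38, a small large-subunit protein, read 38.4, 62.7 and 37.8 CPM in Sham and 39.5, 39.5 and 58.8 in PHx. Rps29 read 59.98, 94.5 and 62.7 CPM in Sham and 59.7, 63.3 and 85.8 in PHx. Rps21, at 43.8, 68.3 and 50.5 CPM in Sham, and Rps28, at 49.3, 70.6 and 51.1, had the same order. In these 4 small proteins' genes Sham 3 exceeded the other Sham libraries and reached the level of PHx 4 or came near it. Other short canonical genes did not share this: Rpl39 read 25.8 CPM in Sham 3, between Sham 1 and Sham 4, and Rpl41 read 186 CPM there, the lowest of the Sham libraries.

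For the 23 canonical genes under 600 bases, a limit chosen after the values were seen, the median deviation in Sham 3 was 0.11, and for the 53 longer ones 0.01. In PHx 4 the same medians were 0.39 and 0.42. Among other tested protein-coding genes, the 155 under 600 bases had medians of 0.06 in Sham 3, 0.08 in PHx 1, -0.08 in PHx 3 and 0.18 in PHx 4, and the 14557 longer genes had 0.01, 0.01, -0.01 and -0.01. Rps28, Rpl38 and Rps29 were chosen as examples after their values were seen.

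Per length, the tested paralogs stood below their parents, by widely different amounts. In Sham the mean level in percent of the parent was 62.9 for Rpl36al, 34.2 for Rpl22l1, 7.34 for Rps27l, 4.69 for Rpl7l1 and 0.106 for Rpl3l. Of the 8, Rpl22l1, Rpl36al, Rpl3l, Rpl7l1 and Rps27l passed the filter. Rpl10l, known from testis, had a count of 0 in all 6 libraries. At 3 counts per library this allows up to 0.0578 to 0.0774 CPM, here on library totals without TMM factors, and covers counting error only. Rpl32l had 0, 6 and 3 counts in Sham and 1, 3 and 3 in PHx. Rpl39l, a testis-enriched copy, had 0, 11 and 2 counts in Sham and 5, 0 and 4 in PHx. No comparison was made for these 3.

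How far a copy can be told from its parent depends on their sequence. The coding sequences of GENCODE vM21 were aligned, and the stretch of 60 bases around the longest run of identical bases is shown for Rpl22l1 (bases 197 to 256) with Rpl22 (215 to 274), and for Rpl36al and Rpl36a (both 235 to 294). Capitals mark the bases that differ.
Rpl22l1: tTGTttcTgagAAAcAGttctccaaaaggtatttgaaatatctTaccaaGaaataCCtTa
Rpl22: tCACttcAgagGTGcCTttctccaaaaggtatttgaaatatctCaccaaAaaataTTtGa
Rpl36al: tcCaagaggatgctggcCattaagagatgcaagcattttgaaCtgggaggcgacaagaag
Rpl36a: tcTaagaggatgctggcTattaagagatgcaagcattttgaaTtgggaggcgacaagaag
Rpl22l1 and Rpl22 were identical at 68.2% of aligned positions, with a longest identical run of 26 bases. Rpl36al and Rpl36a were identical at 87.7%, with a longest run of 24 bases. Rps27l and Rps27 were identical at 76.2%, Rpl3l and Rpl3 at 73.2%, and Rpl7l1 and Rpl7 at 54.9%, with longest runs of 11, 22 and 10 bases. Reads were 150 bases long, longer than each of these runs. Processed pseudogenes are a further source of shared reads: 190 rows typed as ribosomal protein pseudogenes held counts equal to 0.411% to 0.516% of those of the canonical genes. How the submitters' counting treated reads that fit more than 1 copy is not given in the sources used here, so these genes' values are uncertain to that extent.

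Rpl22l1, which can take the place of Rpl22 in the large subunit, read 6.65, 6.82 and 9.49 CPM in Sham and 8.36, 11.4 and 13.9 in PHx. PHx 3 and PHx 4 were above every Sham library, but PHx 1 was below Sham 4, so the groups overlapped. Its log2 fold change was 0.55 ± 0.24 (SE), the largest among the paralogs except for the sparsely counted Rpl3l, with an edgeR p of 0.0566 and an adjusted p of 0.406, and it was 0.36 without PHx 4. Rpl22 itself read 97.2, 99.1 and 105 CPM in Sham and 91.6, 102 and 119.9 in PHx (log2 fold change 0.06 ± 0.12).

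Per length, Rpl22l1 stood at 30.9%, 31.1% and 40.7% of the Rpl22 level in Sham and at 41.2%, 50.4% and 52.2% in PHx. All 3 PHx ratios exceeded all 3 Sham ratios, though PHx 1 exceeded Sham 4 by little. The difference of the log2 ratios was 0.49. The two-sided exact permutation p was 0.10, the smallest that 3 libraries against 3 allow, and 0.5 after Benjamini-Hochberg adjustment over the 5 pairs tested. Without PHx 4 the difference was 0.42.

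Rpl7l1, a nucleolar relative of the large-subunit protein Rpl7, varied little between libraries. It read 46.1, 48.5 and 49.6 CPM in Sham and 50.4, 48.1 and 47.2 in PHx, with a log2 fold change of 0.01 ± 0.09 (SE). All 6 libraries lay close together, and PHx 4 was below PHx 1. Rpl7 read 354, 352 and 399 CPM in Sham and 333, 349 and 528 in PHx. The log2 ratio of Rpl7l1 to Rpl7 was -2.94, -2.86 and -3.01 in Sham and -2.73, -2.86 and -3.48 in PHx, so that PHx 4 was lowest and PHx 1 highest. The difference between groups was -0.09 (two-sided exact permutation p 0.9, adjusted p 1), and without PHx 4 it was 0.14.

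Rps27l, a copy of Rps27 known as a p53 target, read 16.0, 18.2 and 17.9 CPM in Sham and 14.9, 17.3 and 20.9 in PHx. The groups overlapped, PHx 1 was lowest and PHx 4 highest, and the log2 fold change was 0.03 ± 0.16 (SE). Its log2 ratio to Rps27 differed by 0.17 (exact permutation p 0.2, adjusted p 0.5), and by 0.20 without PHx 4. Rpl36al, a near copy of Rpl36a on another chromosome, read 30.9, 37.4 and 35.9 CPM in Sham and 32.2, 33.6 and 49.1 in PHx. Rpl36a read 50.8, 58.4 and 48.0 CPM in Sham and 47.3, 45.8 and 84.8 in PHx, so that both genes were highest in PHx 4. Their log2 ratio did not differ beyond its spread (difference -0.00, SDs 0.15 and 0.18, exact permutation p 1).

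Rpl3l, the form of Rpl3 known from heart and skeletal muscle, read 1.88, 0.155 and 0.630 CPM in Sham and 0.734, 2.56 and 1.79 in PHx. The libraries of each group were scattered over a wide range, and its counts were 8 to 125. The log2 ratio of Rpl3l to Rpl3 differed by 1.29 (exact permutation p 0.3, adjusted p 0.5), and by 1.31 without PHx 4. Rpl3 read 435, 403 and 472 CPM in Sham and 361, 429 and 535 in PHx. Of the parents of the 3 untested paralogs, Rpl10 read 366, 328 and 355 CPM in Sham and 296, 342 and 471 in PHx, and Rpl32 read 123, 127 and 129 in Sham and 116, 113 and 184 in PHx.

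**Figure D5:**
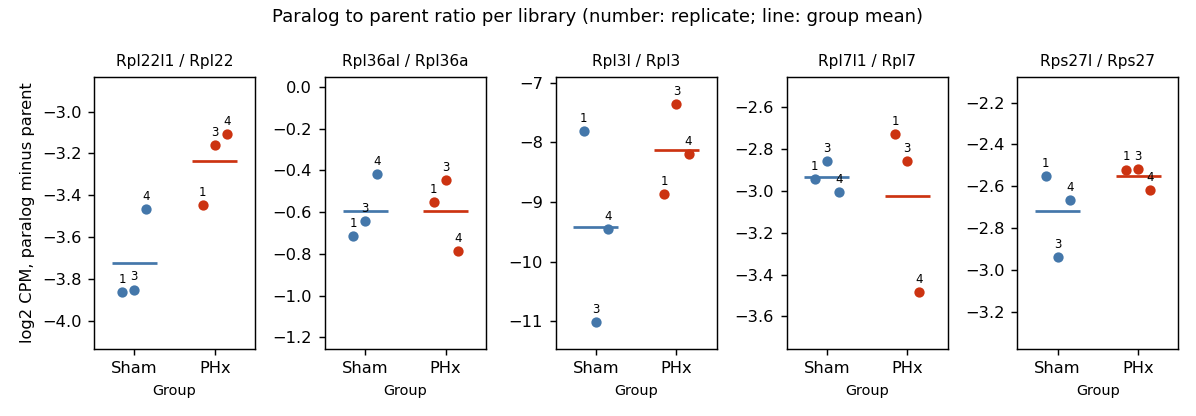
Log2 ratio of paralog to parent (log2 CPM, paralog minus parent) in each library for the 5 tested pairs; numbers are replicates, lines are group means, and each panel has its own range of values. Rpl22l1 to Rpl22 is the pair whose groups do not overlap, and Rpl7l1 to Rpl7 is lowest in PHx 4 at -3.48.

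Genes translated or regulated together with the ribosomal proteins were described from lists taken for their roles. Of all genes tested, 0.862% were called and 26.6% were highest in PHx 4, so that 0 calls among so few genes say little about a list. Of 19 translation factors and other TOP mRNAs, 0 were called and the median log2 fold change was 0.07. PHx 4 was the highest library for 16 (84.2%). Eef1a1, the factor that brings aminoacyl-tRNA to the ribosome, read 3769, 3672 and 3858 CPM in Sham and 3068, 3767 and 4650 in PHx. Eef2, the translocation factor, read 1937, 1914 and 1826 CPM in Sham and 1547, 1816 and 2235 in PHx. Both had PHx 1 lowest and PHx 4 highest, as most canonical genes did. Without PHx 4 the list's median was -0.12, and the values of Eef1a1 and Eef2 were -0.14 and -0.17.

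Of 24 ribosome biogenesis genes, 0 were called, the median was 0.04, and 15 (62.5%) were highest in PHx 4. Ncl, the nucleolar protein nucleolin, read 212, 214 and 281 CPM in Sham and 219.6, 325 and 415 in PHx. Npm1, nucleophosmin, read 88.6, 99.1 and 123 CPM in Sham and 111, 133 and 179 in PHx. Both groups overlapped in each gene, with PHx 4 highest. Gnl3 (nucleostemin), named after its values were seen, read 20.8, 21.1 and 24.7 CPM in Sham and 28.6, 27.7 and 70.0 in PHx (log2 fold change 0.92, edgeR adjusted p 0.393). The list's median without PHx 4 was -0.04, and Ncl, Npm1 and Gnl3 differed by 0.21, 0.23 and 0.34.

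Of 7 RNA polymerase I genes, 0 were called, with Ubtf and Polr1d, the most abundant, at log2 fold changes of -0.09 and 0.18. PHx 4 was the highest library for 3 of the 7 (42.9%). Of 17 genes of mTORC1 and TOP mRNA control, 0 were called and the median was -0.12. Eif4ebp2, a repressor of cap-dependent translation, was at -0.22 and Larp1, the TOP mRNA binding protein, at -0.01. PHx 4 was the highest library for 2 of the 17 (11.8%), Myc among them, and the list's median deviation in PHx 4 was -0.21. Myc, a transcription factor of growth genes named after its values were seen, read 42.3, 23.2 and 40.3 CPM in Sham and 43.7, 71.3 and 358.5 in PHx, so that PHx 4 was far above the rest. Its log2 fold change was 2.16 ± 0.88 (SE), with an edgeR adjusted p of 0.404. Without PHx 4 the value of Myc was 0.70, and the medians of the RNA polymerase I and mTORC1 lists were -0.11 and -0.04.

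Mitochondrial ribosomal proteins, which serve a separate ribosome, were not high in PHx 4 as a group. Of 77 genes, 0 were called, the median log2 fold change was -0.12, and 57 were negative. Their median deviation in PHx 4 was -0.14, where that of the cytosolic genes was 0.42. PHx 4 was the highest library for 13 of the 77 (16.9%), against 26.6% of all genes tested. Mrpl4 and Mrpl24, the most abundant in Sham, had log2 fold changes of -0.12 and -0.11. Mrpl17, with means of 33.5 CPM in Sham and 34.5 in PHx, had 0.04, and its highest library was PHx 4 (43.7 CPM). The list's median without PHx 4 was -0.11, with 57 negative.

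Free ribosomal proteins can bind MDM2 and so stabilize p53, and the 3 genes of this surveillance route were not called. Mdm2 read 71.0, 65.2 and 75.9 CPM in Sham and 76.1, 89.0 and 112 in PHx. Every PHx library was above every Sham library, with PHx 1 only just above Sham 4, and the log2 fold change was 0.39 ± 0.15 (SE) with an edgeR adjusted p of 0.359. Trp53 differed by 0.14, and Cdkn1a, the p53 target p21, by 0.53 ± 0.48 (SE), each with overlapping groups. Without PHx 4, Mdm2, Trp53 and Cdkn1a differed by 0.22, 0.04 and 0.32. At an unadjusted edgeR p under 0.05, 12.7% of all genes tested were found. The lists of 19 TOP mRNA partners, 24 biogenesis and 7 RNA polymerase I genes held 0, 2 and 1 such genes. Those of 17 mTORC1 control, 77 mitochondrial ribosome and 3 surveillance genes held 4, 1 and 1. The 4 of mTORC1 control, named after their values were seen, were Mtor, Rptor, Tsc1 and Tsc2. Each was lower in PHx, with log2 fold changes of -0.26, -0.31, -0.41 and -0.37, and none was called.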

How the data were processed

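The deposited table gives a whole-number count and an RPKM per gene and library. Per the submitters' processing notes, bcl2fastq, TopHat2 2.0.13 and mm10 (GRCm38) were used; the counting program, annotation and use of strand are not given in the sources used here. The authors' RPKM equalled the count over the listed length (base pairs, deposited per gene) and the library total for 100% of values (relative tolerance 1e-06), and served only for levels per length. Counts were tested with edgeR 4.0.16 (R 4.3.3; TMM, filterByExpr, robust quasi-likelihood, group as the only term) on 19033 genes, with Benjamini-Hochberg adjustment. SE is the absolute log2 fold change over the square root of F. Paralog to parent ratios were compared by exact permutation. Alternatives were other scalings and filters, DESeq2 1.42.0, limma-voom (limma 3.58.1), a replicate block and leaving out each library. On simulated PHx and Sham counts of 18403 genes, the fit recovered 24.2% of 99 genes changed by 1 and 66.7% of 96 changed by 2 on the log2 scale, with 3 false calls among 91. The changed genes were drawn at random from all genes, and each gene was simulated independently. These rates therefore do not describe the ribosomal protein genes, which are highly counted and moved together within libraries.

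Members and lists were chosen with earlier results of these data known. Genes named were every paralog and parent, the stalk genes, Rps27a, Rpsa and Fau, the 8 largest changes each way, the 5 highest and lowest RPKM, and the 2 most abundant of each list, with further examples stated as such; some genes this rule takes are not reported here. 27 names turned into dates and 2 duplicated names concern no member.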

Additional observations from a re-analysis of the deposited data

How the results depend on the processing

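The 0 called members stood at 0 in every alternative run, with edgeR, DESeq2 and limma-voom. The median log2 fold change of the canonical genes, 0.05, was 0.01 to 0.10 under other scalings, filters and tools, and -0.17 to 0.15 when 1 library was left out; it was negative without PHx 4 (-0.17) and without Sham 1 (-0.01). The PHx minus Sham share of counts, 0.0921 percentage points, was -0.116 without PHx 4. With the replicate number as a block, 0 members were called, the median was 0.03 and the calls over all genes were 14 higher and 1 lower, against 161 and 3; deviations of same-numbered libraries correlated at -0.09, -0.23 and 0.03, none best with its own number, so the numbers were not taken as pairs. Calls over all genes without 1 library ranged from 0 (without Sham 4) to 166.

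Of 1031 alternative values of 63 results, 71 changed sign, in 36 results, none of them called; 25 of the 71 came without PHx 4. 7 of them concern the medians and the share: those given above, the paralog median with no filter (-0.00365), and the canonical median without PHx 4 under library size alone, median-of-ratios and upper-quartile scaling (-0.12, -0.18 and -0.18). The cause was not tested. Under upper-quartile scaling the value was -0.0195 for Rpl7l1, -0.0103 for Rps27l, -0.0213 for Rpl3 and -0.0146 for Eef1a1. With no filter on low counts it was -0.0155 for Rpl7l1, -0.00365 for Rps27l, -0.0143 for Rpl3 and -0.00749 for Eef1a1. With at least 5 CPM in 3 libraries it was 0.00527 for Rps12, 0.0151 for Rps14, 0.00595 for Rpl41, 0.0224 for Eef2 and 0.0347 for Larp1. With library size alone it was 0.00091 for Rps14, 0.012 for Eef2 and 0.0331 for Larp1. With each library left out in turn, the log2 difference ranged from -0.0803 to 0.24 for Rpl36al, -0.0401 to 0.0341 for Rpl7l1, -0.11 to 0.13 for Rps27l, -0.13 to 0.21 for Rpl10, -0.0565 to 0.13 for Rpl22 and -0.14 to 0.24 for Rpl32. It ranged from -0.17 to 0.32 for Rpl36a, -0.15 to 0.13 for Rpl3, -0.11 to 0.24 for Rpl7, -0.12 to 0.26 for Rplp0, -0.14 to 0.18 for Rplp1 and -0.11 to 0.17 for Rplp2. The ranges were -0.00907 to 0.42 for Rpl23, -0.0287 to 0.29 for Rpl13a, -0.0842 to 0.26 for Rpl10a, -0.35 to 0.0126 for Rps21, -0.31 to 0.0424 for Rpl37 and -0.28 to 0.0417 for Rpl26. Further ranges were -0.24 to 0.15 for Rps29, -0.28 to 0.0749 for Rps12, -0.35 to 0.12 for Rps14, -0.20 to 0.0956 for Rpl41, -0.17 to 0.24 for Rps15a and -0.10 to 0.27 for Rps20. They were -0.0787 to 0.21 for Rpl15, -0.0992 to 0.26 for Rps27a, -0.16 to 0.17 for Rpsa, -0.27 to 0.0968 for Fau, -0.14 to 0.15 for Eef1a1 and -0.17 to 0.0893 for Eef2. For the remaining results they were -0.094 to 0.0128 for Larp1, -0.0783 to 0.0927 for the ratio of Rpl36al to Rpl36a and -0.24 to 0.14 for the ratio of Rpl7l1 to Rpl7.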
